A study of Homo sapiens with 6 samples.

Results

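NeuroD1 occupancy was compared between H82 and H524, a pair of established human small cell lung cancer cell lines, using the deposited chromatin immunoprecipitation sequencing (ChIP-seq) peak lists. The comparison takes every region of both NeuroD1 lists, 3854 in H82 and 20593 in H524, which together are 24447 of the 61250 regions in the 4 lists of the series. A region was called shared where it overlapped a region of the other line by at least 1 bp. The series holds 6 libraries of cultured, untreated cells, 1 per line for each of NeuroD1 (Cell Signaling antibody 4373), H3K4me3 (Abcam ab8580) and an input without antibody. The inputs were not analysed here. With 1 library per line and antibody, replicate spread is unknown, no p-value is given, and a difference between the lines cannot be told apart from one between 2 libraries. The number of reads behind each list is unknown, and the Clopper-Pearson 95% intervals cover counting error only.

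NeuroD1 belongs to the basic helix-loop-helix (bHLH) family of transcription factors and drives neuronal differentiation. It pairs with E-proteins such as TCF3 and TCF12 and binds the E-box, whose letters are CANNTG, while ID proteins hold E-proteins away from DNA. In neurons and endocrine cells it acts during differentiation, and in small cell lung cancer its high expression names one of the molecular subtypes. H3K4me3 marks the starts of active genes.

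Each region carries a score deposited by the authors, read as the -log10 of a q-value, and it was used only to rank regions within a list, rank 1 being the highest. Region coordinates are in hg19. Gene starts in hg19 were entered by hand from general knowledge, 1 per gene, and were kept only where their chromosome and their length or spacing matched RefSeq. This placed 318 of 352 genes on 19 lists of neuronal, neuroendocrine, signalling and control genes, and all counts over genes refer to these 318. Of these, 293 matched in spacing to a nearby gene within 1.5 kb, and the others matched in length alone, which does not fix a position. Among genes named here the latter are ACAP2, ACTA1, CBFA2T3, COL5A1, DLL1, HES6, MYT1L, SCRT1, STX1A, SYP and TSHZ1. A gene may also use another start in these cells. Of the 318 starts, 48.7% (43.1 to 54.4) lay within 1 kb of H3K4me3 in H82 and 57.2% (51.6 to 62.7) in H524.

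Promoters are shown for genes at which the lines agree or differ, chosen after their values were seen. Each is the 250 bases before the RefSeq start, matched by symbol, 5′ to 3′, with every CANNTG in capitals. The first 4 genes had a NeuroD1 region over this window in both lines. NEUROD1 encodes the immunoprecipitated factor itself, RAB3A a GTPase of synaptic vesicles, MNT a partner and antagonist of the MYC network, and ARRDC4 an arrestin-domain protein.
NEUROD1 promoter, GRCh38.p14 chr2:181680518-181680767, minus strand: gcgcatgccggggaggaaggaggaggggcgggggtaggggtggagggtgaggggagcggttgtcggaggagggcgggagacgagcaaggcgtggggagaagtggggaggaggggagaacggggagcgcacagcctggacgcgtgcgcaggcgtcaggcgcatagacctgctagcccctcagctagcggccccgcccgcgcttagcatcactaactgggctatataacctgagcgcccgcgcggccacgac
RAB3A promoter, GRCh38.p14 chr19:18204043-18204292, minus strand: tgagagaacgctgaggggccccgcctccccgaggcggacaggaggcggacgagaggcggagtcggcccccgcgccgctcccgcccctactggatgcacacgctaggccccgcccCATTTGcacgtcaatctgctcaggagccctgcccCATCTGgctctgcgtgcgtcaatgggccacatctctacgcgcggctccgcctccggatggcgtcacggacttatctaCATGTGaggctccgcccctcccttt
MNT promoter, GRCh38.p14 chr17:2401061-2401310, minus strand: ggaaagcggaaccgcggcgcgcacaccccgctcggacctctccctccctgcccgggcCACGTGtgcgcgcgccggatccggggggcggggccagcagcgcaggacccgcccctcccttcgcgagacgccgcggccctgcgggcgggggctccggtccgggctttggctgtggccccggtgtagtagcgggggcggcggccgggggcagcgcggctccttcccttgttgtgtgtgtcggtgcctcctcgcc
ARRDC4 promoter, GRCh38.p14 chr15:97960453-97960702, plus strand: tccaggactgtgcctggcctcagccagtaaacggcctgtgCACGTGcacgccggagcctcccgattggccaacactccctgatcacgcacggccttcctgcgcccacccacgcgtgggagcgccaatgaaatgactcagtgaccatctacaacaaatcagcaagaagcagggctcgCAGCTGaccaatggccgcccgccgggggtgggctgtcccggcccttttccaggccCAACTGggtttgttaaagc

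NEUROD2, NEUROD4 and NHLH2 encode neuronal bHLH factors and had a region over the window in H524 and not in H82.
NEUROD2 promoter, GRCh38.p14 chr17:39607921-39608170, minus strand: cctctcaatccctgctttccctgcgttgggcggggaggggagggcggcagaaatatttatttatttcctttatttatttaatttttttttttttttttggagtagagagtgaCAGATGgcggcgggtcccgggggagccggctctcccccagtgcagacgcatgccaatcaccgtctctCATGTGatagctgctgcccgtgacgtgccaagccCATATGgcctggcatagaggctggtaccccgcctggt
NEUROD4 promoter, GRCh38.p14 chr12:55019724-55019973, plus strand: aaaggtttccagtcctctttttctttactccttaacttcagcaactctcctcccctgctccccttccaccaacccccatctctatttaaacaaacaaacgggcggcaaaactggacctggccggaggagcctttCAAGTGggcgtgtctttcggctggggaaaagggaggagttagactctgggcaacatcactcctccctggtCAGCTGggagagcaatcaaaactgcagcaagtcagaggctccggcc
NHLH2 promoter, GRCh38.p14 chr1:115841127-115841376, minus strand: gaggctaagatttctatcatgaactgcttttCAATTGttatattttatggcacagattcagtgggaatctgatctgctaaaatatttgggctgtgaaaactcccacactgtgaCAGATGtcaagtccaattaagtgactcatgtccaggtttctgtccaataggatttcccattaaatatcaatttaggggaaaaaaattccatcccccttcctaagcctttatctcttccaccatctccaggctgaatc

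NEUROG1, a proneural bHLH factor, and HES1, a repressor downstream of Notch, had a region over the window in H82 and not in H524.
NEUROG1 promoter, GRCh38.p14 chr5:135535965-135536214, minus strand: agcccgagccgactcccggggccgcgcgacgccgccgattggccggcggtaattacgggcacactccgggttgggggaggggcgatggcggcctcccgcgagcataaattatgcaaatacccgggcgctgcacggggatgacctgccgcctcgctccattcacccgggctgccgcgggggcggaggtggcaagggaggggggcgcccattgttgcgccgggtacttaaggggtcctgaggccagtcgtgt
HES1 promoter, GRCh38.p14 chr3:194135898-194136147, plus strand: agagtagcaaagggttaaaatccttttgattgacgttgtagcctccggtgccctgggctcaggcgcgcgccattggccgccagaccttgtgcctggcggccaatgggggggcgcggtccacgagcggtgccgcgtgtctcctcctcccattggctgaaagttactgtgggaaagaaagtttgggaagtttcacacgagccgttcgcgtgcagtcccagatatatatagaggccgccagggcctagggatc

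The windows of RAB3A, ARRDC4 and NEUROD2 each held 3 E-boxes, those of NEUROD4 and NHLH2 held 2, that of MNT held 1, and those of NEUROD1, NEUROG1 and HES1 held 0. Presence or absence of these letters in a window is not a measure of binding. The search read CANNTG, which is the same on both strands, and within it CAGATG, which reads as CATCTG on the other strand, and the palindrome CAGCTG. Over all 35116 RefSeq promoters of this length, 61.8% held a CANNTG, 12.2% a CAGATG on either strand and 4911 of them a CAGCTG. Among 138 placed genes whose start was placed to within 150 bp, CAGATG stood on either strand in 2 of 14 windows with an H82 region (14.3%, 1.78 to 42.8), in 4 of 26 with an H524 region (15.4%, 4.36 to 34.9) and in 6 of 110 with a region of neither line (5.45%, 2.03 to 11.5). CANNTG stood in 9 of the 14 (64.3%, 35.1 to 87.2), 16 of the 26 (61.5%, 40.6 to 79.8) and 58 of the 110 (52.7%, 43.0 to 62.3). CAGCTG stood in 1, 3 and 12 of them. The intervals of these classes overlapped for each motif. The H82 and H524 classes held windows in common, so they are not separate sets.

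Of the H82 regions, 2066 were shared (53.6%, 52.0 to 55.2), and of the H524 regions, 2055 were shared (9.98%, 9.57 to 10.4). The lists differed 5.34-fold in length, and the share depended on how far down each list the regions were taken. Among the 100 highest-scoring regions, 93.0% of those of H82 (86.1 to 97.1) and 53.0% of those of H524 (42.8 to 63.1) met the whole list of the other line. Among the 1000 highest, the shares were 72.8% (69.9 to 75.5) and 32.2% (29.3 to 35.2). When both lists were limited to the same number, the lines met less often and nearly evenly. The share of H82 was then 24.0% at 100 regions, 20.3% (17.8 to 22.9) at 1000 and 22.1% (20.8 to 23.5) at 3854. The share of H524 was 23.0%, 19.9% and 21.7% at the same limits. Leading H82 regions were thus mostly present in H524, but mostly outside an equally long head of its list. They still ranked high there as a percentage of the longer list. Of the shared regions among the 100 highest of H82, 68 of 93 (73.1%, 62.9 to 81.8) met the highest 10% of H524. From H524, 33 of 53 (62.3%, 47.9 to 75.2) met the highest 10% of H82.

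**Figure D1:**
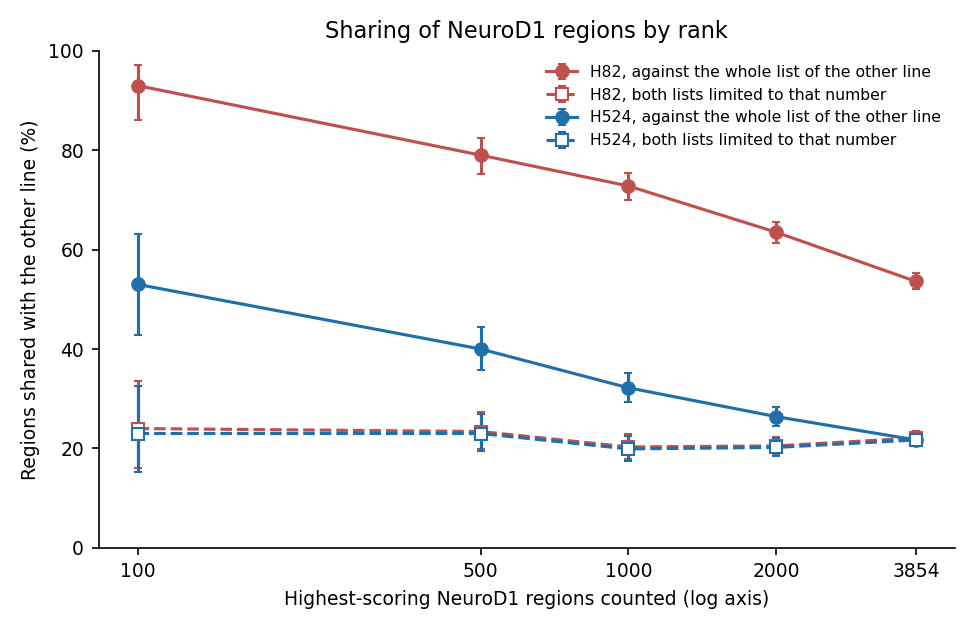
Share of the highest-scoring NeuroD1 regions of H82 (red) and H524 (blue) that overlapped the other line, against the number of regions counted on a log axis; bars are exact 95% intervals. Filled points use the whole other list and fall from 93.0% to 53.6% in H82, and open points limit both lists to the same number and stay between 19.9% and 24.0%.

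Within the shared set, ranks of both lines were weakly related. Over the 2066 shared H82 regions, each with the best H524 region it met, Spearman's rho was 0.305, as a description across regions of 1 library pair. A shared H82 region met the highest 10% of the H524 list in 548 cases (26.5%, 24.6 to 28.5) and the highest 50% in 1556 (75.3%, 73.4 to 77.2). Seen from H524, 314 shared regions (15.3%, 13.8 to 16.9) met the highest 10% of H82. The H524 region was the wider one for 72.1% of the shared H82 regions, with a median width ratio of 1.37. Shared regions were wider than unshared ones within each list, with medians of 448 and 385 bp in H82 and of 651 and 455 bp in H524. Several summits were listed in 7.45% of shared and 3.69% of unshared H82 regions, and in 25.5% and 10.6% of those of H524.

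The shared regions that ranked highest in both lists outside chromosome 8 lay mostly at gene starts. Of the 10, 9 lay within 1 kb of a placed start. These genes were entered after the regions were known, so the names describe the regions and their number supports no share. The region at the start of ACAP2, a GTPase-activating protein of membrane trafficking, was chr3:195163720-195164270 in H82 at rank 7 and chr3:195163254-195164215 in H524 at rank 33. The region at ARRDC4, whose promoter is printed above, was chr15:98503496-98503936 at rank 8 in H82 and rank 15 in H524. DNM2, which encodes the membrane-fission GTPase dynamin 2, had chr19:10828091-10828831 at rank 16 in H82 and rank 13 in H524. These 3 starts stood among the 33 highest regions of both lists. So did the region at SKA2 and PRR11 and a region given no gene, both described below.

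The other named starts were those of P4HB, a protein disulfide isomerase, at ranks 13 and 48, UBALD2 at 19 and 51, ARID4A at 21 and 86, SKA2 and PRR11, a divergent pair linked to mitosis, at 22 and 19, and KHSRP, an RNA-binding protein, at 26 and 91, with H82 first in each pair. ADGRL1, which encodes the latrophilin adhesion receptor, had chr19:14317620-14318726 at 0.622 kb from its start, at rank 11 in H82 and 78 in H524. The region chr17:26368075-26368835, at ranks 20 and 28, was given no gene. Of these top shared regions, only those at P4HB and at SKA2 and PRR11 overlapped H3K4me3 of H82 in H82. In H524 those at ACAP2, ARRDC4, P4HB, DNM2, ARID4A and SKA2 with PRR11 overlapped the H524 mark. Further down, at ranks 54 and 204, a shared region lay at the start of BMAL1, the core circadian bHLH factor, and at ranks 71 and 95 one lay at FOS, an immediate-early gene.

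The highest-scoring unshared regions of H82 outside chromosome 8 ranked from 45 to 128, and those of H524 from 20 to 63. In H82 they included regions at the starts of MRPL45 (mitochondrial ribosome) at rank 83, RAB8A (vesicle transport) at 107 and FAM204A at 107. Others lay inside PKP1, a desmosome gene, at rank 87, ST3GAL3 at 114, DAP3 at 116 and KIF1B, an axonal kinesin, at 128. The region chr14:57226392-57227561, at rank 88, lay 49.6 kb downstream of the OTX2 start. The highest of all, chr3:195441518-195442466 at rank 45, and chr12:20798519-20799120 at rank 112 were given no gene. Of these 10 H82 regions, 3 overlapped H3K4me3 of H82.

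In H524 none of the 10 highest unshared regions lay at a placed start or on H3K4me3 of either line. They lay inside PIP5K1C, a phosphoinositide kinase, at rank 20, KIF19, a ciliary kinesin, at ranks 21 and 50, SPTBN4, the spectrin of axon initial segments and nodes, at rank 42, COG4 at rank 47 and COL5A1 at rank 59. A region at rank 45, chr16:89055610-89056414, lay 12.1 kb from the start of CBFA2T3, a corepressor. The regions chr4:1602648-1603480 at rank 39, chr6:33711731-33713210 at rank 49 and chr17:71972838-71973752 at rank 63 were given no gene. As with the shared regions, the gene names were entered after the regions were known.

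The very top of both lists lay on chromosome 8. H82 had chr8:128310003-128314497 at rank 1, chr8:128657760-128659306 at rank 2 and chr8:128341853-128344442 at rank 3. All 3 overlapped H524, at ranks 6, 2 and 3356. H524 had chr8:127416792-127426493 at rank 1 and chr8:127189111-127193099 at rank 3, both without an H82 region, the nearest lying 104 and 115 kb away. Its rank 2 region, chr8:128650475-128660675, was shared. Copy number at these sites was not measured here. Without chromosome 8, 53.7% of the H82 regions and 9.89% of those of H524 were shared.

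NeuroD1 lay within 5 kb of the start of 33 of the 318 placed genes in H82 (10.4%) and of 106 in H524 (33.3%). Both lines had a region there at 27 genes (8.49%), H82 alone at 6 (1.89%), H524 alone at 79 (24.8%) and neither at 206 (64.8%). The larger number in H524 came with the longer list. When H524 was limited to its 3854 highest-scoring regions, 23 genes had a region, against 33 in H82, and 15 had one in both. Of the 79 genes with a region in H524 alone, 71 had their best one past rank 3854, with a median rank of 10297.

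Position relative to the start was similar in both lines, with overlapping intervals. Among genes with a region within 5 kb, 69.7% in H82 (23 of 33, 51.3 to 84.4) and 72.6% in H524 (77 of 106, 63.1 to 80.9) had one within 1 kb. These were 7.23% and 24.2% of all placed genes. A further 30 genes in H82 (9.43%) and 59 in H524 (18.6%) had regions no nearer than in the gene body, and 36 (11.3%) and 66 (20.8%) only outside the body and up to 50 kb from the start. Counted by distance to the start alone, 79 genes in H82 (24.8%), 204 in H524 (64.2%) and 75 in both (23.6%) had a region within 50 kb. No region lay in the body or within 50 kb of 219 genes in H82 (68.9%) and 87 in H524 (27.4%). In H82, 27 of the 155 genes with H3K4me3 at the start had a NeuroD1 region within 5 kb (17.4%, 11.8 to 24.3), against 6 of the 163 without the mark (3.68%, 1.36 to 7.84). In H524 these were 77 of 182 (42.3%, 35.0 to 49.8) and 29 of 136 (21.3%, 14.8 to 29.2). In each line the intervals did not overlap, and starts with the mark were occupied more often. A misplaced start would tend to count as lacking both.

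The neurogenic bHLH family, to which NEUROD1 belongs, had a region within 5 kb at 3 of 15 placed genes in H82 and 9 of 15 in H524. Over all placed genes the shares were 10.4% and 33.3%. NEUROD1 itself was bound at its start in both lines. The H82 region chr2:182544227-182545847 ranked 2470 of 3854, past the middle of its list, while the H524 region chr2:182543884-182546424 ranked 287 of 20593. Around it H524 had 4 more regions within 5 kb, the best at rank 6305, and H82 had none. Between 36.8 and 48.0 kb downstream of the start, H82 had 4 further regions, all shared, with the best, chr2:182507105-182507510, at rank 1136. The overlapping H524 region there, chr2:182506939-182508529, ranked 2608. So at NEUROD1 the downstream site ranked above the start in H82, and the start ranked above the downstream site in H524.

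At NHLH1, a bHLH factor of young neurons, both lines had an overlapping region, with chr1:160331502-160332542 at rank 467 in H82 and chr1:160332005-160333001 at rank 2181 in H524. NEUROG1 was the 1 member with a region in H82 alone. Its start lay under chr5:134871426-134871787 at rank 2152 in H82, and the nearest H524 region lay 6.33 kb upstream. Over the whole locus both lines had 5 regions and only 1 of them was shared, at ranks 3603 in H82 and 9657 in H524. NEUROD2, NEUROD4, NEUROD6, NHLH2, HES6, OLIG1 and OLIG2 had a region in H524 alone, the best being chr2:239148701-239150646 at HES6, an inhibitor of HES1, at rank 2010. Only HES6 and NEUROD2 stayed when H524 was limited to 3854 regions.

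Among E-proteins and ID proteins, the partners and inhibitors of bHLH factors, 2 of 7 had a region in H82 (28.6%) and 5 of 7 in H524 (71.4%). All placed genes gave 10.4% and 33.3%. TCF3 had overlapping regions at 0.356 and 0.303 kb from its start, at rank 2540 in H82 and 584 in H524. ID3 had regions in both lines, the best at ranks 1330 and 5676. TCF12, ID1 and ID2 had one within 5 kb in H524 alone. TCF12 nevertheless had 4 H82 regions in its locus, the best at rank 157, besides 13 of H524.

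Of the zinc finger and EBF factors of neuronal and neuroendocrine identity, 1 of 10 had a region in H82 (10.0%) and 6 of 10 in H524 (60.0%). The shares over all placed genes were 10.4% and 33.3%. INSM1, a repressor that marks neuroendocrine cells, had 6 H524 regions within 5 kb, at ranks from 6538 to 19346, and none of H82. The nearest H82 region, chr20:20391490-20391765 at rank 1902, lay 42.7 kb downstream, where it overlapped H524 at rank 6040. EBF1, with 13 regions in its locus in H524 and 1 in H82, EBF2, ST18 and SCRT1 also had a start region in H524 alone, and MYT1L had different regions in the 2 lines at 1.09 and 0.009 kb from its start. None of these starts but that of EBF2, at rank 3595, lay within the first 3854 H524 regions.

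Of the neural homeobox, POU and SOX factors, 4 of 24 had a region in H82 (16.7%) and 13 of 24 in H524 (54.2%). All placed genes gave 10.4% and 33.3%. OTX2, a homeobox factor of the anterior brain and retina, had the most H82 regions in its locus among the list genes, 8 in each line. Within 5 kb of its start, H82 had 5 regions at ranks 600, 637, 1016, 2445 and 3017, all shared, and H524 had 6 at ranks from 2077 to 19937. The region over the start, chr14:57276358-57277243 in H82, ranked 1016 there and 2393 in H524. DLX2, with ranks 2518 and 11170, and ISL2, through different regions, also had one in both lines.

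NKX2-1, the lung and forebrain homeobox factor also known as TTF-1, was occupied in H524 alone, which had 12 regions in one cluster from chr14:36961926 to 36990438, the best at rank 2647, with rank 5909 at the start. The nearest H82 region lay 967 kb away. SOX4, SOX11, ISL1, LHX2, LHX4, POU4F1, ONECUT2 and DLX1 also had a region within 5 kb in H524 alone, all past rank 3854. Of other factors linked to subtypes of the disease, POU2F3, YAP1 and ATOH1 had no region within 5 kb in either line. POU2F3 had 2 regions in its locus in H524 and none in H82, and YAP1 and ATOH1 had none in either. The starts of NEUROD1, SYP, NCAM1 and ATOH1 carried H3K4me3 in both lines, those of POU2F3 and INSM1 in neither, and those of CHGA and YAP1 in H524 only, as far as peak lists without expression can check the labelled cell type.

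The MYC network had the largest share of occupied starts among the 19 lists, 4 of 9 placed genes in H82 (44.4%) and 7 of 9 in H524 (77.8%), beside 10.4% and 33.3% of all placed genes. MYC had a region over its start in both lines, chr8:128746144-128749340 at rank 31 in H82 and chr8:128745578-128751847 at rank 9 in H524. The gene lies on chromosome 8, like the very top of both lists, and copy number there was not measured here. MNT had overlapping regions at rank 65 in H82 and 544 in H524. MXD1, another MAX partner, had them at ranks 361 and 3419. MYCL had 3 regions in H82, the best at rank 1017, while the single H524 region within 5 kb ranked 19598. MYCN, MXD3 and MXD4 had one in H524 alone, at ranks 14041, 12337 and 7395.

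Notch pathway genes, listed together with REST, had a region at 4 of 20 starts in H82 and 9 of 20 in H524. Over all placed genes the shares were 10.4% and 33.3%. DLL3, a Notch ligand that inhibits the pathway and is a surface target in this cancer, had chr19:39987846-39988753 at rank 679 in H82 and chr19:39987708-39989940 at rank 41 in H524. A further shared region about 15 kb upstream, chr19:39973648-39974238, ranked 155 in H82 and 107 in H524. Thus DLL3 had leading regions in both lines, with a different order of the start and the upstream site. HEYL, a Notch target, had ranks 503 and 3303, and MAML3, a Notch coactivator, had the identical interval chr4:141075343-141075659 in both lists at ranks 291 and 4410. HES1 had 2 regions in H82, the best at rank 2328, and the nearest of H524 lay 47.0 kb away. DLL1, DLL4, JAG1, LFNG, MFNG and NOTCH1 had a region in H524 alone, of which DLL4 ranked highest, at 2080.

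**Figure D2:**
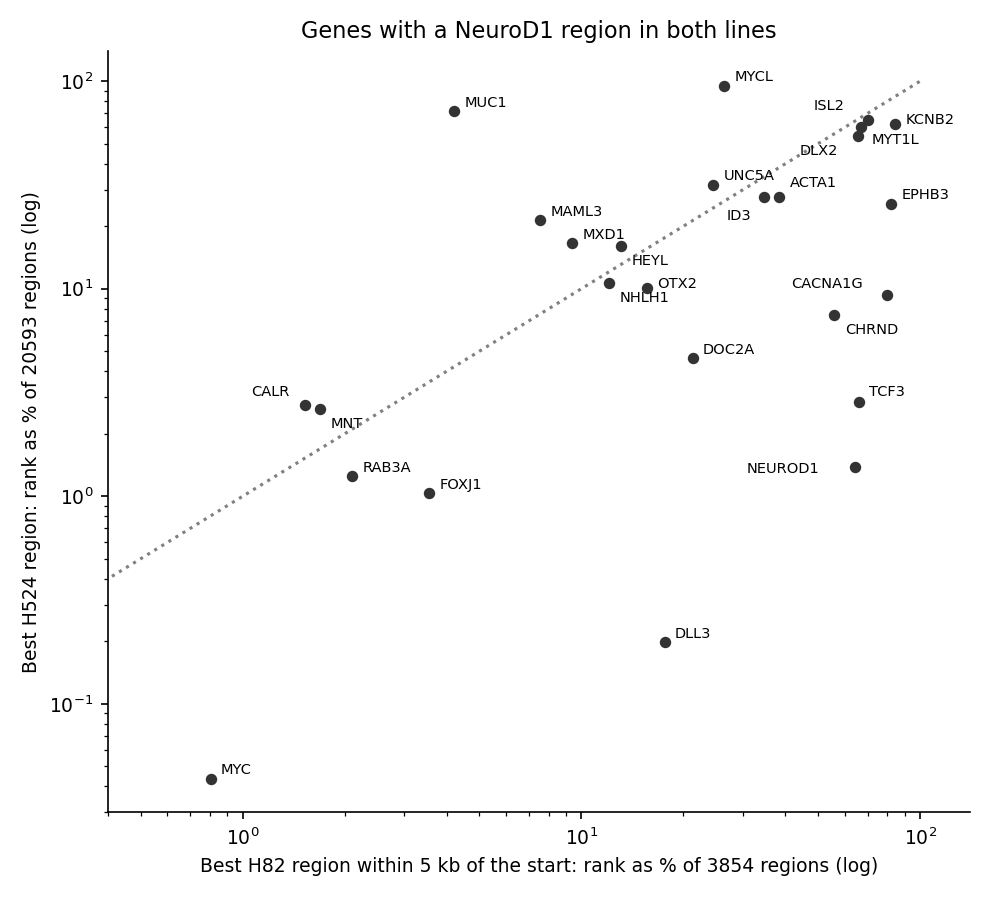
Each point is a placed gene with a NeuroD1 region within 5 kb of the start in both lines, 26 of the 27 being shown; axes give the rank of the best region as a percentage of each list on log scales, lower being nearer the head of the list, and the dotted line marks equal position. MYC lies nearest the head of both lists, DLL3 and NEUROD1 lie below the line, at better ranks in H524, and MUC1 and MYCL lie above it.

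Of the 27 genes with a region in both lines, 24 had overlapping regions and 3, ISL2, KCNB2 and MYT1L, had different ones. Over all shared regions the median rank was 1539 of 3854 in H82 and 5086 of 20593 for the best H524 region met, so shared regions as a whole lay below the line of equal position in the plot of ranks at shared genes.

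Of 28 synaptic vesicle genes, 3 had a region in H82 (10.7%) and 11 in H524 (39.3%), near the 10.4% and 33.3% of all placed genes. RAB3A had chr19:18314591-18315279 at rank 81 and chr19:18314652-18315908 at rank 258. DOC2A, a calcium sensor of exocytosis, had overlapping regions near 5 kb, at ranks 821 and 953. VAMP2, a vesicle SNARE, had one within 5 kb in H82 alone, at rank 2273, and its locus held 4 H82 regions, the best at rank 18, against 1 of H524 at rank 1394. Those with one in H524 alone included SNAP25, SYT1, SYT4, SYT11, STX1A, BSN, CADPS and CPLX2.

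The neuroendocrine secretory genes had 0 of 19 starts with a region in H82 and 4 of 19 in H524 (21.1%), beside 10.4% and 33.3% of all placed genes. The 4 were NNAT, UCHL1, PCSK1 and SYP, at ranks from 5318 to 17121. CHGA, which encodes chromogranin A, had 2 H524 regions in its locus, the nearest at 5.30 kb, and none of H82. Cell-surface receptors had 1 of 14 in H82, DLL3, and 7 of 14 in H524, beside the same 10.4% and 33.3%. SSTR2, a somatostatin receptor, had 12 H524 regions in its locus, the best at rank 111, and none of H82. NCAM1, IGF1R, CXCR4, FGFR1 and CHRNA5 were the others in H524 alone. Of these lists, only STX1A and BSN kept a start region among the H524-only genes when H524 was limited to 3854 regions.

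Ion channel genes had 3 of 33 starts in H82 (9.09%) and 7 of 33 in H524 (21.2%), beside 10.4% and 33.3% of all placed genes. CACNA1G, a T-type calcium channel, had ranks 3071 and 1925, and KCNB2, a delayed-rectifier potassium channel with different regions in the lines, 3240 and 12793. Axon guidance genes had 3 of 36 (8.33%) and 11 of 36 (30.6%), near the shares of all placed genes. EPHB3 and UNC5A had overlapping regions, with those of UNC5A, a netrin receptor, at ranks 945 and 6538. EFNB3, an ephrin, had a region over its start in H82 alone, at rank 335, and the nearest of H524 was 11.8 kb away. ROBO1, a SLIT receptor with a very long gene body, held 29 H524 regions and 3 of H82, the most of any placed locus in H524.

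**Figure D3:**
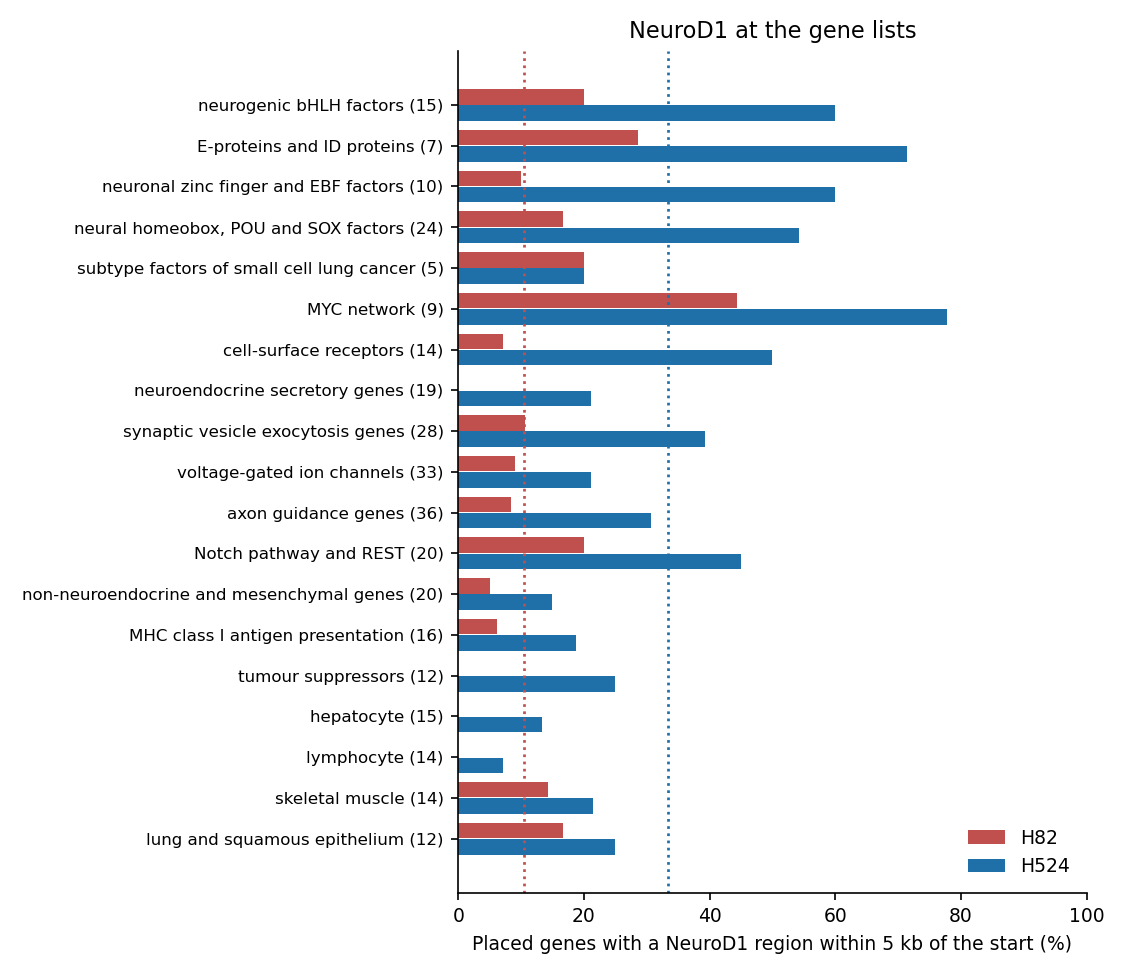
Percentage of placed genes of each list, their number in parentheses, with a NeuroD1 region within 5 kb of the start in H82 (red) and H524 (blue); dotted lines mark 10.4% and 33.3%, the shares over all 318 placed genes. The MYC network stands highest in both lines, and the neuroendocrine secretory, tumour suppressor, hepatocyte and lymphocyte lists have no H82 bar.

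The control lists are read against the same 10.4% and 33.3% of all placed genes. In H82 and H524 a region lay at 1 and 3 of 20 non-neuroendocrine genes, 1 and 3 of 16 antigen presentation genes, 0 and 3 of 12 tumour suppressors, 0 and 2 of 15 hepatocyte genes and 0 and 1 of 14 lymphocyte genes. CALR, which encodes the chaperone calreticulin, had overlapping regions at ranks 59 and 569. Skeletal muscle genes had 2 (14.3%) and 3 (21.4%) of 14, with ACTA1 and CHRND in both lines, and lung and squamous genes 2 (16.7%) and 3 of 12, with MUC1 and FOXJ1 in both. At FOXJ1, a factor of ciliated cells, the overlapping regions ranked 137 in H82 and 215 in H524, while no H3K4me3 lay at its start in either line. EPHA2, of the non-neuroendocrine list, had its region in H82 alone at rank 3240.

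Over whole loci, that is the gene body and 50 kb to either side of the start, the 318 genes held 180 regions in H82 and 778 in H524, counting a region again for each gene it lay near. H524 had more than H82 at 203 genes, H82 had more at 13, and both had the same number, at least 1, at 20. The 13 included CACNA1A, SCN2A, RAB3B, EPHA2 and HLA-G, at which H524 had none, and also VAMP2 and EFNB3. Of the 6 genes with a start region in H82 alone, 5 had an H524 region in the locus. Of the 79 with one in H524 alone, 24 had an H82 region in the locus (30.4%, 20.5 to 41.8).

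**Figure D4:**
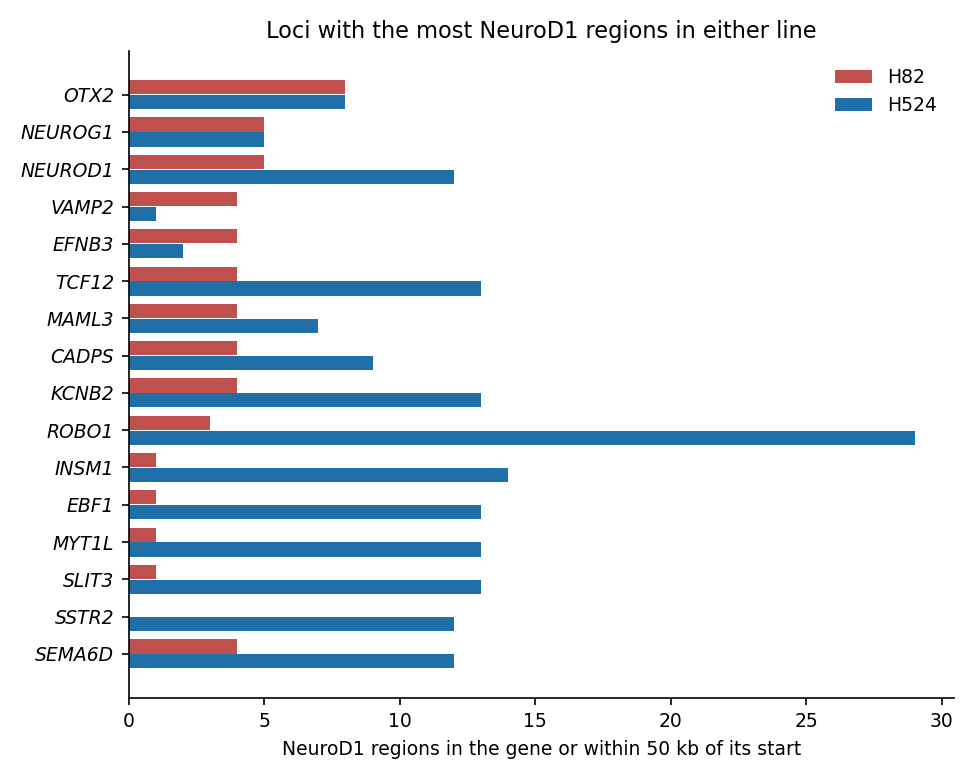
Number of NeuroD1 regions in the gene or within 50 kb of its start, in H82 (red) and H524 (blue). Chosen were the 10 of the 318 placed list genes with the most regions in each line, ties ordered by best rank. These are 17 genes, since 3 are in both sets, of which 16 are shown. OTX2 and NEUROG1 have equal numbers, 8 and 5, while ROBO1 has 3 in H82 and 29 in H524.

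Regions were joined into clusters where gaps were no wider than the distance customarily used to join super-enhancers. H82 had 79 clusters of 3 or more regions, which held 7.14% of its list, and H524 had 1237, which held 23.6%. With H524 limited to its 3854 highest-scoring regions it had 55. The H82 clusters were almost all met by H524, 74 of 79 (93.7%, 85.8 to 97.9), whereas single H82 regions were met in 53.5% of cases. In H524, 375 of 1237 clusters met H82 (30.3%, 27.8 to 33.0) and 10.3% of single regions did. A cluster offers more bases to overlap than a single region, and the share was not adjusted for that.

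The largest H82 cluster, chr13:25738692-25767759, held 7 regions over AMER2, an inhibitor of WNT signalling in neural tissue, and met 5 of H524. The second, chr14:57197114-57227561, held 6 regions, ended 49.6 kb downstream of the OTX2 start and met 8 of H524. A cluster of 5 lay at the start of PELI2, chr14:56581594-56606173, and met 6. The largest H524 clusters were chr16:85449075-85532594 with 22 regions, 3 of H82 meeting it, one inside MSI2, an RNA-binding regulator of progenitor cells, with 19 and 9, and chr22:42699757-42796514 with 17 and 1. Clusters inside TSPAN9 held 15 regions and inside SIPA1L3 held 13, and met 3 and 2 of H82. The cluster of 13 at TSHZ1, a zinc finger factor of the developing nervous system, chr18:72917196-72936561, met none of H82, like the cluster of 12 at NKX2-1. These gene names were also entered after the clusters were known.

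Unshared H82 regions often lay near H524 occupancy, and unshared H524 regions seldom lay near H82. Of the 1788 H82 regions without overlap, 187 (10.5%) had an H524 region within 1 kb, and 732 (40.9%, 38.6 to 43.3) had none within 50 kb. Of the 18538 unshared H524 regions, 342 (1.84%) had an H82 region within 1 kb, and 14392 (77.6%, 77.0 to 78.2) had none within 50 kb. The median distance was 32.9 kb from H82 and 210 kb from H524. List length alone changes these distances, since the nearest of 20593 regions is sought from H82 and the nearest of 3854 from H524.

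Shared NeuroD1 regions lay on H3K4me3 more often than unshared ones in each line. They were also wider, with medians of 448 against 385 bp in H82 and 651 against 455 bp in H524. A wider region offers more bases to overlap, and the shares were not adjusted for that. In H82, 33.5% of shared regions (31.5 to 35.6) and 24.6% of unshared ones (22.6 to 26.6) overlapped the H82 mark. In H524, 26.2% of shared regions (24.3 to 28.1) and 14.9% of unshared ones (14.4 to 15.4) overlapped the H524 mark. Shared regions of both lists lay more often on the H82 mark than on the H524 mark. In H82 these shares were 33.5% and 21.2%, and in H524 they were 36.4% and 26.2%. Unshared H82 regions also differed between the marks of the lines, with 24.6% on that of H82 and 9.84% (8.50 to 11.3) on that of H524. Unshared H524 regions did so little, with 14.9% on that of H524 and 13.3% (12.8 to 13.8) on that of H82. The mark of H82 alone was met by 15.9% of unshared and 15.5% of shared H82 regions. The mark of H524 alone was met by 4.94% of unshared and 3.80% of shared H524 regions. In both lines most unshared regions lay on the mark of neither, 74.3% in H82 and 81.7% in H524.

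**Figure D5:**
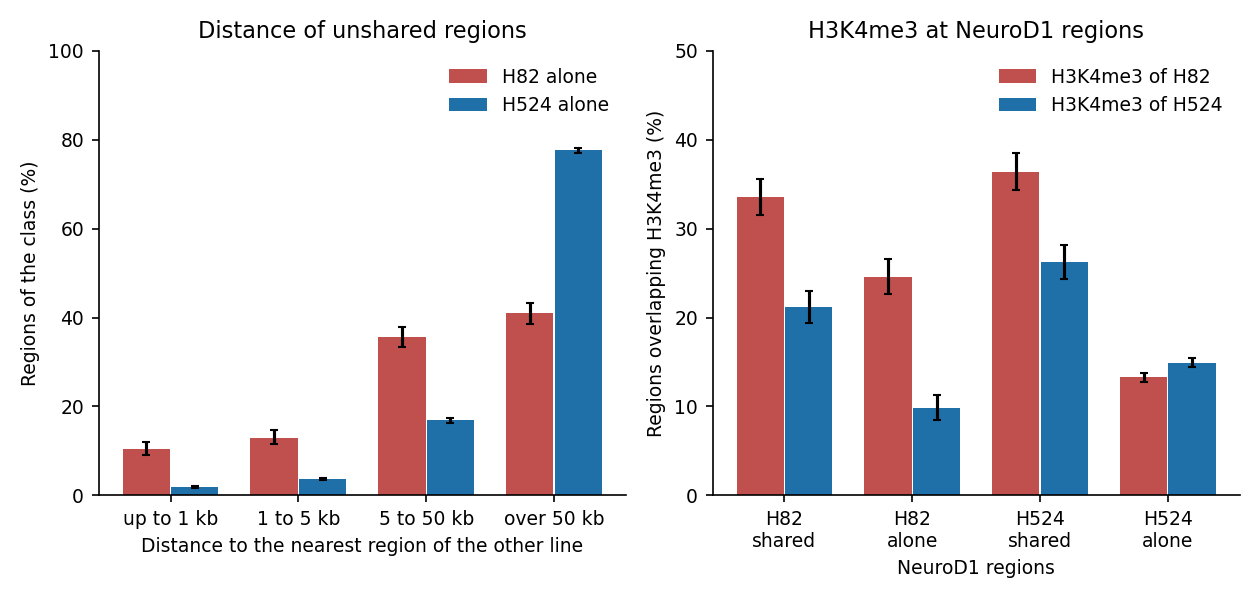
Left, unshared NeuroD1 regions of each line by distance to the nearest region of the other; right, share of shared and unshared regions of each list that overlap H3K4me3 of H82 (red) or H524 (blue), with exact 95% intervals. In the left panel 77.6% of unshared H524 regions lie over 50 kb from H82. In the right panel unshared H82 regions show 24.6% on the H82 mark against 9.84% on the H524 mark. Shared H82 regions show 33.5% and 21.2%.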

How the data were processed

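Per the submitters' processing notes, the tools were MACS2 2.1.1, Bowtie 1.1.2, Trimmomatic 0.38, R 3.5.1, ChIPseeker 1.18.0, bcl2fastq 1.8.4, Picard 1.118 and SAMtools 1.9, with hg19. Their roles, settings and any use of inputs were not given in the sources used here. Each deposited list has 5 columns. The authors' score was taken as a −log10 q-value from its lowest values, 1.305 and 1.304, close to the 1.301 of 0.05. Entries with the same interval were merged (4137 to 3854 and 23818 to 20593), keeping the highest score. Overlap needs 1 bp.

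A hg19 annotation was not used here. Gene positions in hg19 were entered by hand from general knowledge and kept where the RefSeq (GRCh38.p14) chromosome matched and the span length matched within 500 bp or 1% (279 of the list genes) or, failing that, the spacing to 1 of the nearest entered genes within 1500 bp (39). In all, 293 matched in spacing. Span length does not tell builds apart, so placement was checked on H3K4me3: the entered starts lay within 1 kb of a region in 48.7% (H82) and 57.2% (H524), the GRCh38.p14 starts read as hg19 in 3.46% and 2.20%. GRCh38.p14 positions were never converted. The tolerances were set after the differences to RefSeq had been looked at, and 98 further genes were placed only to name regions already seen. Some list genes count in the totals but are not reported here by name. Members and lists were chosen with earlier results of these data known. The planned classes of all regions by annotation, shares over all genes and E-box content of regions were not run for want of an hg19 genome.

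Named were the 10 highest-ranked shared regions by the worse of both percentiles and the 10 highest unshared ones per line, all outside chromosome 8. Also named were the 3 highest per line on chromosome 8, the 10 placed list genes with most regions per line, and list genes with a region within 5 kb. Counting used scipy 1.17.1, pandas 2.3.3 and numpy 2.4.6 in Python 3.11.15, plots matplotlib 3.10.9, and the overlap count was tested on simulated data. Alternatives changed overlap rule, score threshold, list length, window, joining distance and chromosomes.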

Additional observations from a re-analysis of the deposited data

How the results depend on the processing

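Of 55 alternatives, 29 stayed within the counting interval, or for counts within 1.5 times, and 26 moved. No paired analysis was possible because each line has 1 library per antibody. The shared percentages of H82 and H524 were 58.5 and 11.6 with regions within 1 kb counted, 47.3 and 6.40 with 50% of the region covered, 22.1 and 21.7 with H524 limited to 3854 regions, and 20.3 and 19.9 with both limited to 1000. H524 also gave 9.30 for scores at or above the median and 11.7 for unmerged entries. Within 50 kb in place of 5 kb, 79 placed genes had a region in H82, 204 in H524 and 75 in both. With H524 limited, 23 did in H524 and 15 in both, fewer than the 33 of H82. Clusters numbered 38 in H82 and 721 in H524 with joining at 5 kb, and 55 in H524 with its list limited, fewer than the 79 of H82. The order of the lines in both counts thus turned with list length. For regions within 1 kb of H3K4me3, the shares on a line's own mark were 44.8% of shared and 32.1% of unshared H82 regions and 36.0% and 19.6% of those of H524. Among regions at or above the median score they were 27.7%, 22.2%, 21.6% and 10.1% in the same order. Shared regions exceeded unshared ones in all of these, none of which adjusted for the width of regions. Chosen after seeing the data, a restriction to the 293 genes with matching spacing left 31 genes with a region in H82, 97 in H524 and 25 in both. Not run were the alternatives on all genes and on E-boxes of regions, which need an hg19 genome, and the 1 kb window for the position of regions, which its definition fixes. Unknown depth limits every comparison of list lengths.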

Other observations

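The share of H82 regions met by H524 varied by chromosome. It was lowest on chromosome 10, where 12 of 69 H82 regions were shared (17.4%, 9.32 to 28.4) and H524 listed 141 regions in all, and highest on chromosome 22, with 28 of 36 (77.8%, 60.8 to 89.9). Chromosome 19 had 137 of 189 shared (72.5%, 65.5 to 78.7), and chromosome 1, with the most H82 regions, had 268 of 587 (45.7%, 41.6 to 49.8). On the H524 side the share was highest on chromosome 19, at 20.8% (17.8 to 24.1), and lowest on chromosome 21, at 4.56% (2.30 to 8.02). Copy number of these chromosomes was not measured here.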
